A study of Mus musculus with 12 samples.

Results

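The 8 genes described here, called members below, were the caspases Casp2, Casp6, Casp8 and Casp9, the caspase activator Apaf1, the mitochondrial proteins Aifm1 and Diablo, and the caspase inhibitor Xiap. They were chosen by name and found by Ensembl identifier, and each was present once among the 37583 gene identifiers of the count files. RNA sequencing had been done on 12 clones of mouse granulocyte-monocyte progenitors, of which 6 were wildtype and 6 Taz knockout, where Taz is the X-linked gene for tafazzin. Tafazzin remodels cardiolipin, the signature phospholipid of the inner mitochondrial membrane. All 12 clones descend from C57BL/6 fetal liver of embryonic day 15.5, and each was grown from a single cell. Both genotypes carry a retroviral ER-Hoxb8 fusion, which blocks maturation while estradiol is present, and both were kept in 0.5 µM beta-estradiol with about 50 ng/ml stem cell factor. How the Taz allele was made is not given in the sources used here. Clone titles begin with 1 or 2 in wild type and 3 or 4 in knockout, with 3 clones under each number, and what the number stands for is not stated. Should clones with 1 number come from 1 embryo or line, the 12 clones are not 12 independent samples and the p-values below are too small.

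In the mitochondrial route to apoptosis, cytochrome c leaves the intermembrane space and makes Apaf1 assemble into a wheel, the apoptosome. This wheel activates caspase-9, the initiator of a cascade in which caspase-6 is cleaved further downstream. Xiap blocks caspase-9 among other caspases, and Diablo (also called Smac), once released, relieves that block. Caspase-8 is the initiator of the death-receptor route, and it has been described at mitochondria on a cardiolipin platform together with its substrate Bid. Caspase-2 is activated by the PIDDosome. Aifm1 is a flavoprotein of the intermembrane space that supports respiratory chain assembly in living cells and can move to the nucleus during cell death. Granulocytes and their progenitors are known for a strong dependence on survival signals that hold this route in check.

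Counts in genes totalled between 18970252 and 27431544 per clone, and the knockout libraries were on average the smaller (21197723 ± 2016313, SD, n = 6, against 24969227 ± 2150523, n = 6). Every member had at least 247 counts in each clone, far over the 3 counts that a count of 0 allows. Wild-type clones had 39.2 CPM ± 2.58 (SD, n = 6) of Taz, and knockout clones 3.35 CPM ± 0.685 (n = 6). CPM is the conventional scaling of counts to a common library total, here corrected by TMM for library composition. Ranges and sums of marker genes are on CPM without that correction. All 12 progenitor markers of the list had counts in each clone, with Mpo at 5336 CPM or more, Kit at 512 CPM or more and Cd34 at 1194 CPM or more. Others were low or uneven between clones. Elane ranged from 2.25 to 820 CPM and Cebpe from 3.01 to 86.7 CPM. Irf8 lay between 5.37 and 16.5 CPM and Csf2ra between 6.53 and 26.1 CPM. Of the mast cell and basophil markers, Cpa3 (851 to 4317 CPM) and Gata2 (130 to 313 CPM) were expressed in every clone, while Fcer1a had at most 2 counts. Clone 2D stood apart in the summed level of 10 mature neutrophil markers (1498 CPM, against 15.9 to 144 CPM in the other 11 clones). Clone 3G stood apart in 5 fetal hepatocyte markers (141 CPM, 2330 counts of them Alb, against at most 1.95 CPM elsewhere), and it alone held more than traces of the collagen genes Col1a1 and Col3a1 (42 and 71 counts). Clone 1A stood apart in 7 erythroid markers (75.7 CPM, against 5.45 to 19.5 CPM in the other 11 clones). Without it Casp9 and Casp6 were not called (log2 fold changes -0.17 and -0.40, edgeR adjusted p = 0.0593 and 0.0522). This was not particular to 1A, since 7 of the 12 fits that left out 1 clone lost the Casp9 call and 9 the Casp6 call. The 6 B-lymphoid markers summed to between 32.6 and 84.6 CPM in wild type and between 6.03 and 28.5 CPM in knockout, although Pax5, which defines the lineage, had at most 2 counts. Of 5 tested B-lymphoid markers 2 were called as lower in knockout (Cd79b and Igll1), as were 1 of 7 neutrophil markers (Cxcr2) and 1 of 5 megakaryocyte markers (Itgb3), all by edgeR. Of all 11819 genes tested, 3.94% were called as lower by edgeR. DESeq2 called 1 or 2 B-lymphoid, 1 neutrophil and 1 megakaryocyte marker as lower, and voom called 0, 0 and 1. Over all genes DESeq2 called 651 as lower without independent filtering and 830 with it, and voom 428. The part of these other cell type genes in the results below was not tested. In bulk RNA, fewer cells of a type and less RNA per cell cannot be told apart.

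Casp9, Casp6 and Aifm1 were lower in knockout, and their promoter sequences are shown so that the regulatory letters next to each start site can be read. Each is the 250 bases before the start, from RefSeq on build GRCm38.p6, a later build than the one the reads were aligned to, written 5′ to 3′ on the gene's strand. Capitals mark GC boxes (GGGCGG, bound by SP1-type factors) and the core GCATGCGC of nuclear respiratory factor 1 (NRF1), an activator of genes for mitochondrial proteins, on either strand.
Casp9, plus strand of chr4:141793362-141793611: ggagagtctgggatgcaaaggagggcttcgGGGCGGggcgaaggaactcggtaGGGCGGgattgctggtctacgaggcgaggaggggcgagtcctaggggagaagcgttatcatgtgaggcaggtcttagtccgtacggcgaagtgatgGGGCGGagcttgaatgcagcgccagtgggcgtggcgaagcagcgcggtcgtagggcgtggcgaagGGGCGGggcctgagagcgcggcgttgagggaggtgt
Casp6, plus strand of chr3:129901165-129901414: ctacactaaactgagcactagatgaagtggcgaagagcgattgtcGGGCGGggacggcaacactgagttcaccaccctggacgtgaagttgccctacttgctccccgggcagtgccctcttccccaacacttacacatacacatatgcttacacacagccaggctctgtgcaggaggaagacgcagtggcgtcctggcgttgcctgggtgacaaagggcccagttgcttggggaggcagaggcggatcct
Aifm1, minus strand of chrX:48513564-48513813: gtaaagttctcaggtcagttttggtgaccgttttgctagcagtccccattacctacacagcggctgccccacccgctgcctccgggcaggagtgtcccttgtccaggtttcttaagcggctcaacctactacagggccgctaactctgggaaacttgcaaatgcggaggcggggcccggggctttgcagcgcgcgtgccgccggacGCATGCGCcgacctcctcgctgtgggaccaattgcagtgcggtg
The Casp9 window held 4 GC boxes, the Casp6 window 1, and the Aifm1 window 0 GC boxes but 1 NRF1 core, 37 to 44 bases before the start. A GC box was found in 32.7% of all 32851 promoter windows of this length and an NRF1 core in 2.26%. These shares were not matched for base composition. G and C made up 66% of the Casp9 window, 58.4% of Casp6 and 62% of Aifm1, against a median of 52.4% over all windows. Among the other members, Apaf1 held 2 GC boxes and 1 NRF1 core, Casp2 and Diablo 1 GC box each and Casp8 none of either, while of 3 Xiap windows 2 held 1 GC box each. Casp2 also held 1 of the 4 E2F spellings searched (TTTCCCGC, TTTGGCGC, TTTCGCGC and TTTGCCGC, present in 1.86% of windows), which shares bases with its GC box. No member window held TGATGNAA, the core of the ATF4 and C/EBP composite element, which was found in 3.45% of windows. The 3 members that were lower thus shared neither motif among all of them.

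Of the 8 members, 3 were lower in knockout and 0 higher at an adjusted p under 0.05 (edgeR's quasi-likelihood test over 11819 genes, Benjamini-Hochberg adjustment). Over all genes tested, 7.94% were called, 3.94% as lower and 3.99% as higher. At an unadjusted p under 0.05 the same 3 members and no others passed, where 23.7% of all genes tested did, and DESeq2 also called 3 lower and 0 higher. The median log2 fold change of the 8 members was -0.05, against -0.01 over all genes tested, and 5 of the 8 lay below 0. All the changes were small, between -0.39 and 0.09 on the log2 scale. The call count rested on single clones, since Aifm1 alone kept its call in all 12 fits that left out 1 clone, and 0 members were called when counts were summed by title number.

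**Figure D1:**
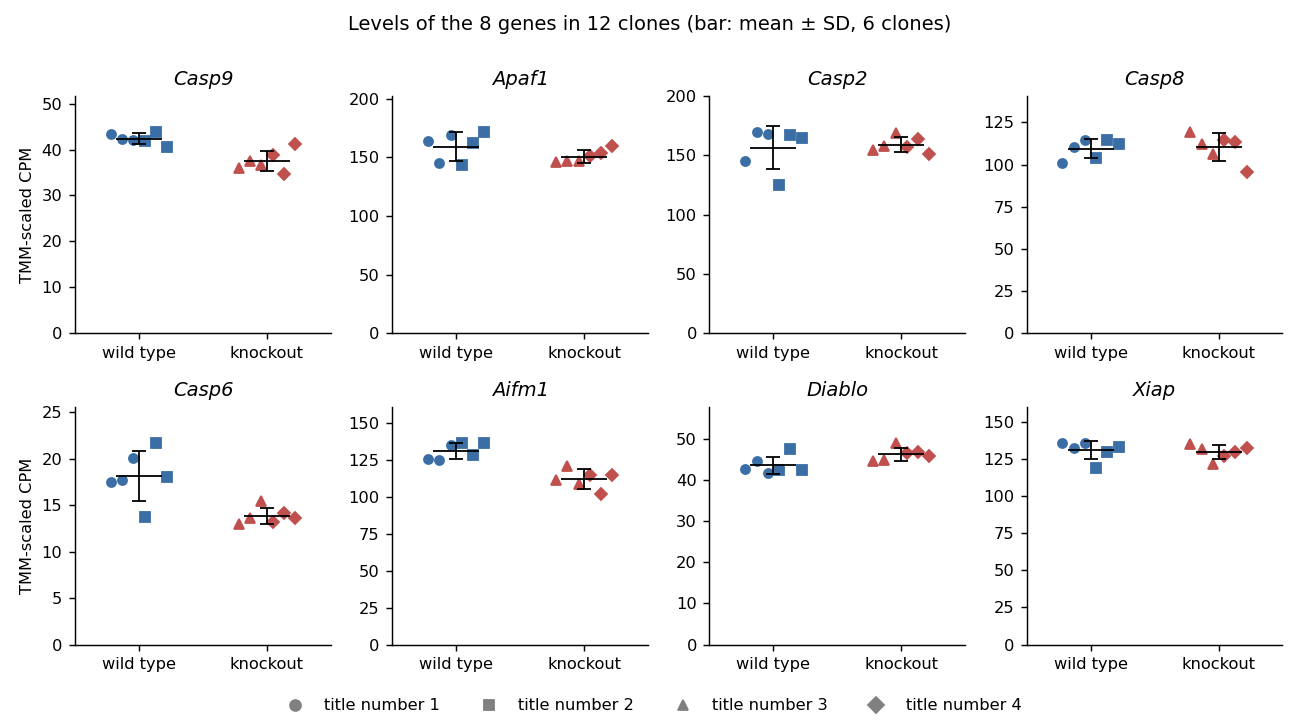
Levels of the 8 members in TMM-scaled CPM (y axis, from 0) for wild-type (blue) and knockout (red) clones, with 1 symbol per clone shaped by title number and black bars for the mean ± SD of 6 clones. Aifm1 levels lie between 102 and 121 CPM in knockout and between 125 and 136 CPM in wild type, whereas Xiap, Casp8 and Casp2 levels of the genotypes lie over each other.

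Casp9 (ENSMUSG00000028914, chromosome 4), the initiator caspase of the apoptosome, had a lowest, median and highest level of 40.5, 42.3 and 43.9 CPM in wild-type clones and of 34.8, 37.1 and 41.2 CPM in knockout clones. Of the 6 knockout clones, 5 lay below every wild-type clone, and the exception was 4L. The mean fell by 11.5%, from 42.4 CPM ± 1.16 (SD, n = 6) to 37.5 CPM ± 2.25 (n = 6), a log2 fold change of -0.18 (SE 0.04, adjusted p = 0.0331 by edgeR). The call was near the threshold. It was lost without any 1 of clones 1A, 1B, 1C, 3G, 3H, 3I and 4K, with edgeR's adjusted p between 0.0553 and 0.0729, while the log2 fold change stayed between -0.20 and -0.15 in all 12 such fits. It was also lost when all libraries were thinned to the smallest total (adjusted p = 0.0526). Exons of Casp9 share 94 bases with Cela2a and Ctrc on the other strand in GENCODE M21, and both of these had 0 counts in all clones.

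Apaf1 (ENSMUSG00000019979, chromosome 10), the scaffold that caspase-9 binds and a known p53 target, stood at 144, 163 and 172 CPM (lowest, median, highest) in wild type and at 146, 149 and 160.1 CPM in knockout. The genotypes overlapped widely, with 5 of 6 knockout clones below the wild-type mean. The log2 fold change of Apaf1 was -0.08 (95% interval -0.19 to 0.03, adjusted p = 0.361 by edgeR). Spread between clones was smaller in knockout (SD 5.39 CPM) than in wild type (SD 12.1 CPM, n = 6 each), and this difference in spread was not tested.

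Casp8 (ENSMUSG00000026029, chromosome 1) ranged over 101, 111 and 115 CPM (lowest, median, highest) in wild type and 95.3, 113 and 119 CPM in knockout. The lowest and the highest of all 12 values were both knockout clones, 4L and 3G. Its log2 fold change was 0.01 (95% interval -0.11 to 0.13, adjusted p = 0.938 by edgeR), so a change in its mRNA of more than 0.13 on the log2 scale lies outside the interval. Casp2 (ENSMUSG00000029863, chromosome 6) stood at 125, 166 and 169.8 CPM in wild type and at 151, 157 and 169 CPM in knockout. Its low wild-type value was that of clone 2D, the clone with the neutrophil genes. Its log2 fold change was 0.02 (95% interval -0.13 to 0.18, adjusted p = 0.883 by edgeR) and -0.03 without 2D (adjusted p = 0.707 by edgeR).

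Casp6 (ENSMUSG00000027997, chromosome 3), an executioner that cleaves nuclear lamins, was the least abundant member and changed most. Its lowest, median and highest levels were 13.7, 17.9 and 21.7 CPM in wild type and 13.0, 13.6 and 15.5 CPM in knockout. The genotypes overlapped through 1 wild-type clone, 2D, at 13.7 CPM, while the other 5 wild-type clones lay at 17.5 CPM or more, above all 6 knockout clones. The mean fell by 23.7%, from 18.1 CPM ± 2.71 (SD, n = 6) to 13.8 CPM ± 0.894 (n = 6). The log2 fold change was -0.39 (SE 0.10, adjusted p = 0.0336 by edgeR), and -0.46 without 2D (adjusted p = 0.00404). This call too was near the threshold and was lost without any 1 of clones 1A, 1B, 1C, 2F, 3G, 3H, 4J, 4K and 4L (adjusted p between 0.0522 and 0.0738 by edgeR). Without 2D and 3G together, which was tried after the data had been seen, Casp6 and Aifm1 were called (log2 fold changes -0.44 and -0.21, adjusted p = 0.0116 and 0.029 by edgeR) and Casp9 was not (-0.17, adjusted p = 0.0775).

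Casp6 varied between clones of a genotype, in part along with some marker sums and against others. It was highest where 7 mast cell and basophil markers summed highest in wild type (clone 2E, 4321 CPM) and lowest where they summed lowest (2D, 1175 CPM), and in knockout its 2 highest clones, 3I and 4K, had the 2 highest marker sums (4723 and 5084 CPM). The low end in knockout went the other way, since 3G, lowest in Casp6, had a sum of 3788 CPM, and 3H, with the lowest sum (2211 CPM), had the third highest Casp6. The sum of 5 megakaryocyte markers was likewise highest in 2E (339 CPM) and lowest in 2D (119 CPM) among wild-type clones, and highest in 4K and 3I (288 and 276 CPM) among knockout clones. The 12 progenitor markers ran against Casp6, with sums lowest in 2E (12814.5 CPM) and highest in 2D (21800.5 CPM) in wild type. In knockout they summed lowest in 4K and 3I (11724.3 and 12903.1 CPM) and highest in 3G (19631.8 CPM). Neutrophil marker sums were also lowest in 2E, 4K and 3I (22.3, 15.9 and 29.6 CPM) and highest in 2D, but in knockout highest in 4L (144 CPM). The mast cell and basophil markers overlapped between genotypes, at 1175 to 4321 CPM in wild type and 2211 to 5084 CPM in knockout, and 0 of 6 tested passed edgeR's test (2 at an unadjusted p under 0.05, and 0 by DESeq2 or voom). The part of this variation in the Casp6 difference was not tested. After removal of genotype means, Casp6 and Casp2 were the most alike pair of members over the 12 clones (Pearson r = 0.86), and r was 0.59 over the 11 clones without 2D.

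Aifm1 (ENSMUSG00000036932, X chromosome) was the member whose difference was steadiest. Its levels were 125, 132 and 136 CPM (lowest, median, highest) in wild type and 102, 113 and 121 CPM in knockout, and all 6 knockout clones lay below all 6 wild-type clones. Genotypes were separated in this way, with knockout lower, in 2.84% of all genes tested, and in 1 of the 8 members. The mean fell by 14.5%, from 131 CPM ± 5.36 (SD, n = 6) to 112 CPM ± 6.48 (n = 6), with a log2 fold change of -0.23 (SE 0.04, adjusted p = 0.00896 by edgeR). In the 12 fits without 1 clone edgeR's adjusted p lay between 0.00774 and 0.0237. It was not called when counts were summed by title number, 2 sums against 2 (log2 fold change -0.22, adjusted p = 0.0672 by edgeR). Chchd4, which works with Aifm1 in importing proteins into the intermembrane space, averaged 104 CPM ± 12.0 over wild-type clones and 102 CPM ± 7.94 over knockout clones (n = 6 each), and edgeR's adjusted p was 0.921 at a log2 fold change of -0.02. The paralogue Aifm2, a p53 target that guards against lipid peroxidation, had a log2 fold change of 0.32, which edgeR did not call (adjusted p = 0.110).

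Diablo (ENSMUSG00000029433, chromosome 5) stood at 41.7, 42.6 and 47.5 CPM (lowest, median, highest) in wild type and at 44.6, 46.2 and 49.1 CPM in knockout. All 6 knockout clones lay above the wild-type mean but 1 above the highest wild-type clone, so the genotypes overlapped. Its log2 fold change was 0.09 (95% interval -0.0015 to 0.18, unadjusted p = 0.0534, adjusted p = 0.219, both by edgeR). Of the 5 members that were not called it lay nearest the threshold, with adjusted p between 0.0881 and 0.386 in the fits without 1 clone. Exons of Diablo share 1326 bases, 21.5% of its exon length, with B3gnt4 on the other strand, and B3gnt4 had at most 2 counts in a clone. They also share 1193 bases with Gm49027 on the same strand, an identifier that has no row in the count files.

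Xiap (ENSMUSG00000025860, X chromosome), the inhibitor of caspases, ranged over 119, 133 and 136 CPM (lowest, median, highest) in wild type and 122, 131 and 135 CPM in knockout. The ranges nearly coincided. Its log2 fold change of -0.01 had a 95% interval of -0.10 to 0.07 (adjusted p = 0.862 by edgeR), the narrowest interval among the members.

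Ratios of read counts of 2 genes within a clone do not depend on how libraries are scaled, and they are given as a description. The log2 ratio of Casp9 to Xiap averaged -1.63 ± 0.08 (SD, n = 6) over wild-type clones and -1.79 ± 0.10 (n = 6) over knockout clones. The genotypes overlapped, from -1.71 to -1.51 against -1.91 to -1.69. For Casp6 to Xiap the log2 ratio was -2.87 ± 0.18 and -3.23 ± 0.14, again with overlap. Diablo to Xiap went the other way, from -1.59 ± 0.10 to -1.48 ± 0.10. The ratio of Apaf1 to Xiap differed by -0.06 and that of Casp9 to Apaf1 by -0.10 on the log2 scale, both with overlap.

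**Figure D2:**
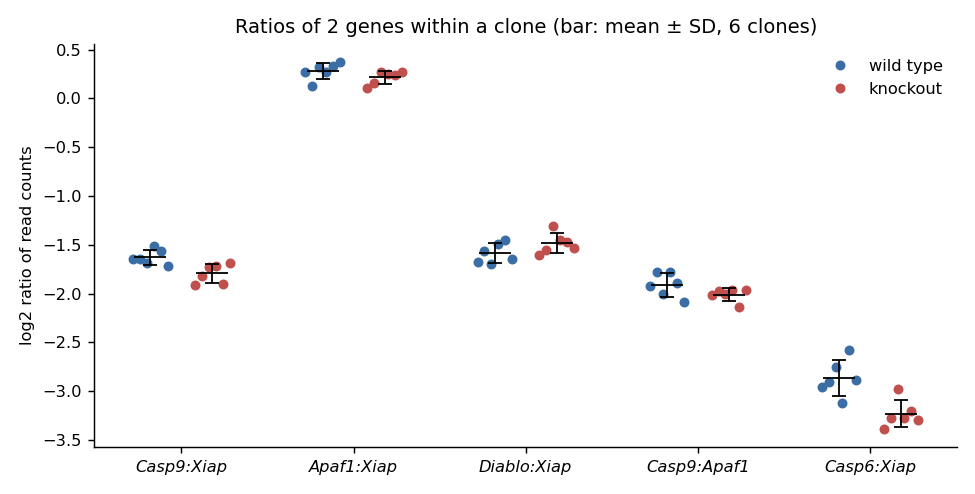
Log2 ratio of the read counts of 2 genes (y axis) in each clone for 5 gene pairs, with wild type in blue, knockout in red and black bars for the mean ± SD of 6 clones. The 2 ratios with the largest differences are Casp6 to Xiap (-0.37 between genotype means) and Casp9 to Xiap (-0.16), and the genotypes overlap in all 5.

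Because title numbers may mark related clones, each knockout number was compared with each wild-type number in a model with 4 groups of 3 clones. The 4 pairs share libraries. No member was called in any of the 4 pairs, in which 1.57% (3 against 1), 0.719% (3 against 2), 0.508% (4 against 1) and 0.262% (4 against 2) of all genes were called. Without adjustment, edgeR's p was under 0.05 for Casp9, Casp6 and Aifm1 in each of the first 3 pairs, and for Casp6 and Aifm1 in the pair 4 against 2. Of all genes tested, 16.5% (3 against 1), 14.3% (3 against 2), 12.6% (4 against 1) and 12.4% (4 against 2) had an unadjusted p under 0.05. In the pair 4 against 2 the unadjusted p of Casp9 from edgeR was 0.0631. Directions were the same in all 4 pairs for Casp9 (log2 fold changes -0.21 to -0.14), Casp6 (-0.44 to -0.34), Aifm1 (-0.27 to -0.18), Apaf1 (-0.12 to -0.04) and Diablo (0.07 to 0.11). Signs for Casp2, Casp8 and Xiap were mixed. Between the 2 numbers of the same genotype edgeR called 0 genes (0% of those tested) and 0 members, with 416 genes (3.52%, 2 against 1) and 244 genes (2.06%, 4 against 3) at an unadjusted p under 0.05, none of them a member. DESeq2 was not run on these pairs.

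**Figure D3:**
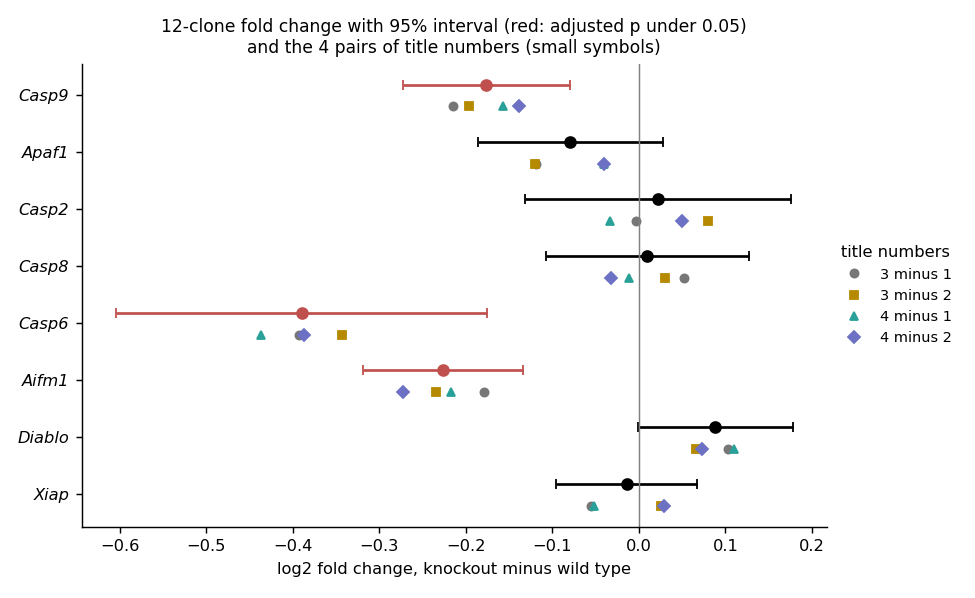
Log2 fold change, knockout minus wild type (x axis), of the 8 members over 12 clones with its 95% interval, red where the adjusted p is under 0.05, and below each the 4 estimates from pairs of title numbers. Casp9, Casp6 and Aifm1 lie left of 0 in the main estimate and in 4 of 4 pairs, and Casp2, Casp8 and Xiap have pairs on both sides of 0.

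Levels of different genes were compared per kilobase of exon (RPKM, from the union of exons in GENCODE M21). In wild type Casp8 was highest at 37.8 RPKM ± 1.98 (SD, n = 6), followed by Aifm1 (32.7 ± 1.34), Casp2 (22.2 ± 2.55), Apaf1 (17.6 ± 1.34) and Xiap (13.8 ± 0.650). Below them came Casp9 (8.15 RPKM ± 0.224), Diablo (7.07 ± 0.353) and Casp6 (3.24 ± 0.485). In knockout, by the same exon length, Diablo (7.52 RPKM ± 0.259) stood above Casp9 (7.21 ± 0.433), and their spreads overlapped. The choice of length changed the order in 2 places. Per kilobase of the longest transcript Casp2 came first in wild type (44.4 RPKM ± 5.09), within the spread of Casp8 (42.3 ± 2.21), and Diablo (12.9 ± 0.643) already stood above Casp9 (10.9 ± 0.298) there. Casp6 was last by both lengths and in both genotypes.

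**Figure D4:**
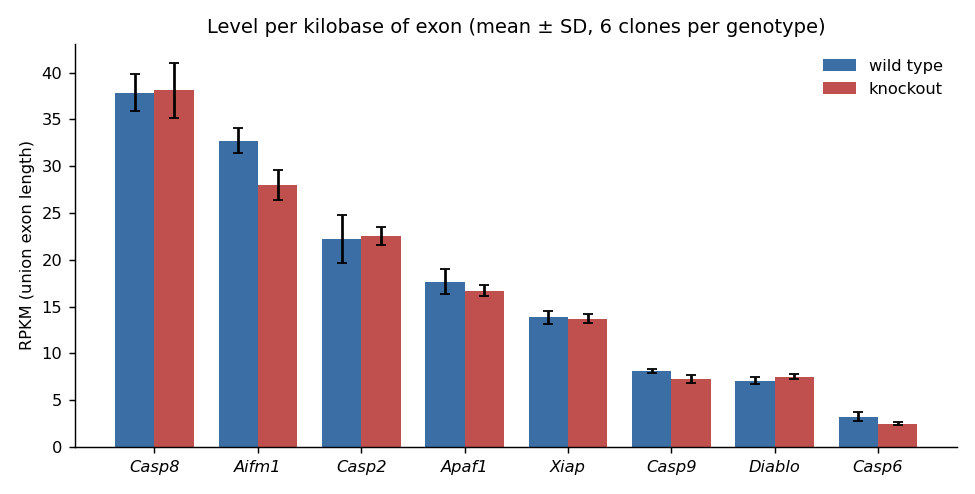
Level per kilobase of exon in RPKM (y axis, from 0) of the 8 members in wild type (blue) and knockout (red), with bars for the mean and error bars for the SD of 6 clones. Casp8 is highest and Casp6 lowest in both genotypes, and Casp9 and Diablo are next to each other in both.

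The rest of the death machinery was taken from 8 lists of related genes with 70 tested members. Of these, 4 were called higher and 2 lower in knockout (8.57%, against 7.94% of all genes), with a median log2 fold change of 0.01. Over all genes tested, edgeR called 3.99% as higher, and 23.7% had an unadjusted p under 0.05. Of 13 tested BCL-2 family genes, which decide on release of cytochrome c, 3 were higher and 0 lower by edgeR. An unadjusted p under 0.05 by edgeR was found for 5 of the 13 (DESeq2 called 4 or 5 higher and voom 4, each with 0 lower). The called genes were Bbc3, which encodes the killer PUMA (log2 fold change 0.86, adjusted p = 0.000481), Bid, the caspase-8 substrate (0.21, adjusted p = 0.0147), and the pore former Bax (0.28, adjusted p = 0.0441, all by edgeR). The call of Bax was lost in 10 of the 12 fits without 1 clone, in which edgeR's adjusted p lay between 0.0711 and 0.0945 (all but those without 2D or 4K). Exons of Bid share 17.7% of their bases with Bcl2l13 on the other strand, which had up to 3221 counts in a clone. Those of Bax share 12.2% with Gm45808 on the same strand, an identifier that has no row in the count files. The part of these overlaps in the 2 calls was not tested. Bak1, the other pore former, was not called (log2 fold change -0.11, edgeR adjusted p = 0.246). The survival gene Bcl2 rose from 67.1 CPM ± 21.3 to 105 CPM ± 16.7 (n = 6 each) and was not called by edgeR either. Its log2 fold change of 0.65 was larger than those of Bid and Bax (edgeR unadjusted p = 0.00559, adjusted p = 0.0609). The death gene Bcl2l11 also passed edgeR's test only without adjustment (0.30, adjusted p = 0.0923). Which further genes of this family DESeq2 and voom called is not reported here.

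Of 9 tested proteins of the intermembrane space and apoptosome, 1 was called, Cycs, as lower (log2 fold change -0.37, edgeR adjusted p = 0.0492). By edgeR 4 of the 9 had an unadjusted p under 0.05, against 23.7% of all genes tested. Cycs encodes cytochrome c. Its level was 4.56 CPM ± 0.498 (n = 6) in wild-type and 3.53 CPM ± 0.260 (n = 6) in knockout clones. Reads that align to more than 1 place were not counted, while cytochrome c has many processed gene copies. Its value is therefore uncertain, and the call was lost in 11 of 12 fits without 1 clone (all but 2E). Levels of Htra2, a protease that antagonises Xiap, averaged 70.3 CPM ± 11.8 over wild-type clones and 60.6 CPM ± 2.46 over knockout clones (n = 6 each, edgeR adjusted p = 0.179). Exons of Htra2 share 25.6% of their bases with Aup1 on the other strand, which had up to 3050 counts in a clone. For Opa1, a gene of inner membrane fusion, edgeR's adjusted p was 0.103 at a log2 fold change of -0.14.

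Of 10 other inhibitors of apoptosis and their antagonists, 0 were called by edgeR or voom and 1 by DESeq2, as lower. Of the 10, 2 (Naip6 and Naip5) had an unadjusted p under 0.05 by edgeR, against 23.7% of all genes tested. The relatives of Xiap were not called, with log2 fold changes of 0.02 for Birc2, -0.04 for Birc3 and 0.08 for Birc6 (adjusted p = 0.903, 0.788 and 0.467 by edgeR). Birc5, the mitotic survivin gene, had -0.11 (adjusted p = 0.329). Of 8 modulators of the apoptosome, Hspa8, a constitutive chaperone, was higher (log2 fold change 0.16, adjusted p = 0.0251 by edgeR), and DESeq2 called 2 higher and 1 lower. By edgeR 3 of the 8 had an unadjusted p under 0.05 (23.7% of all genes tested). The edgeR call of Hspa8 was lost without clone 1C, 3I, 4J or 4K (adjusted p 0.0501 to 0.0575). Ptma, the prothymosin gene, was not called (log2 fold change -0.11, edgeR adjusted p = 0.0605).

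The death-receptor list, upstream of Casp8, had 0 called of 15 tested by edgeR, DESeq2 or voom. Of the 15, 2 (Rbck1 and Cflar) had an unadjusted p under 0.05 by edgeR, against 23.7% of all genes tested. Cflar, which encodes the caspase-8 brake c-FLIP, was not called (log2 fold change 0.16, edgeR adjusted p = 0.118), nor was the adaptor Fadd (0.12, adjusted p = 0.218). The receptor gene Fas was barely expressed, at 1.39 CPM ± 0.662 (n = 6) and 1.45 CPM ± 0.447 (n = 6). Both PIDDosome partners of caspase-2 were uncalled, with log2 fold changes of 0.01 for Pidd1 and -0.08 for Cradd (adjusted p = 0.967 and 0.82 by edgeR, 0 at an unadjusted p under 0.05, and 0 called by DESeq2 or voom).

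Among 11 tested caspase substrates, Parp1, a DNA repair enzyme, was called as lower (551 CPM ± 12.3 to 472 CPM ± 18.3, n = 6 each, with no overlap between genotypes). Its log2 fold change was -0.23 (adjusted p = 0.00146 by edgeR) and its call held in all 12 fits without 1 clone. Over all genes tested, 3.94% were called as lower by edgeR, and 2.84% had no overlap with knockout lower. In this list DESeq2 called 2 as lower and voom 1, and by edgeR 5 of the 11 had an unadjusted p under 0.05 (23.7% of all genes tested). The nuclease Dffb and its inhibitor Dffa had log2 fold changes of -0.13 and -0.12 (adjusted p = 0.136 and 0.102 by edgeR), and the lamin gene Lmnb1 -0.11 (adjusted p = 0.0523).

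**Figure D5:**
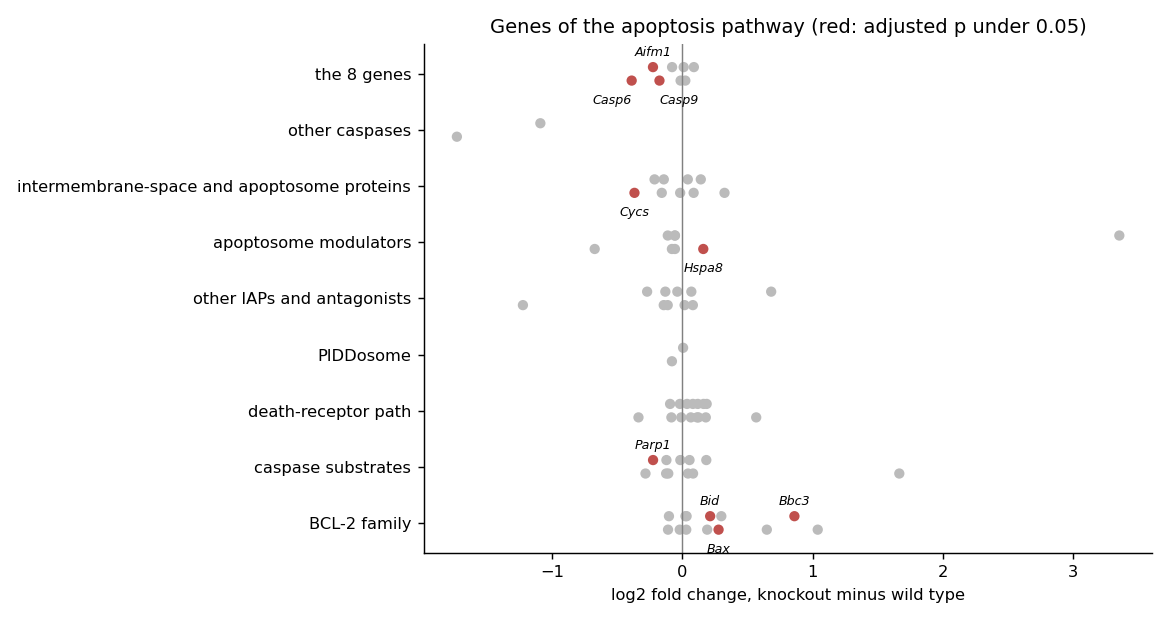
Log2 fold change, knockout minus wild type (x axis), of each tested gene in the 8 members and in 8 lists of related genes, 1 point per gene, red and named where the adjusted p is under 0.05. The named genes among caspases lie left of 0 (Casp6 and Casp9) and those of the BCL-2 family right of 0 (Bbc3, Bid, Bax), all of these less than 1 log2 unit from it.

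For each member the genes most alike over the 12 clones after removal of genotype means are named as a description, from 8519 candidates that share the same 12 libraries. Casp2 was most like Esd, Extl3 and Msn (Pearson r = 0.98, 0.98 and 0.97), and Casp6 most like Cd274, Avl9 and Ric1 (0.98, 0.96 and 0.96). For Xiap they were Zrsr1, Usp37 and Phlda3 (0.94, 0.90 and 0.89), and for Aifm1 Slc25a26, Wdr92 and Pign (0.92, 0.90 and 0.90). Casp9 was most like Serhl, Pmm2 and Rab3gap1 (0.90, 0.87 and 0.87), Apaf1 most like Brca1, Slf1 and Csf2rb (0.88, 0.86 and 0.84). Diablo had Cmpk1, Rab11a and Ormdl3 (0.88, 0.88 and 0.85) and Casp8 had Dhrs3, Harbi1 and St3gal2 (0.88, 0.87 and 0.86). The 8 sets of 3 had no gene in common. Aifm1 and Diablo, both released from the intermembrane space, ran opposite to each other over the 12 clones without that removal (r = -0.74). That value includes the difference between genotypes. After the removal r was -0.50 for Aifm1 and Diablo, and the most opposed pair of members was Casp8 and Casp9 (r = -0.57).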

How the data were processed

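Each clone had 1 file in which the authors deposited whole-number counts by Ensembl gene, made without regard to strand per the file names. The tools in the submitters' processing notes are STAR, HTSeq and edgeR, and the build is mm9, with versions and annotation release not given in the sources used here. The last 5 lines of each file, HTSeq totals that name no gene, entered neither library sizes nor tests. They held 42.8% to 44.9% of records as multiply aligned, 3.06% to 3.93% outside genes and 1.53% to 1.65% as ambiguous. Symbols were matched for 32860 of 37583 identifiers. Exon lengths and overlaps were computed from the exon positions of GENCODE M21 and not from an annotation of mm9.

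From these counts edgeR 4.0.16 (R 4.3.3) fitted genotype over all 12 clones with TMM, filterByExpr by genotype and quasi-likelihood F-tests, adjusted by Benjamini-Hochberg over 11819 genes. All 8 members passed the filter. A gene was called at an adjusted p under 0.05. The SE was the absolute log2 fold change over the square root of F, and 95% intervals used the fit's degrees of freedom. Likeness used log2 CPM with a prior count of 2 and genes averaging 3 or more on that scale. Alternatives were RLE scaling, DESeq2 1.42.0, voom of limma 3.58.1, other filters, thinning, leaving out clones, sums by title number and title-number pairs.

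The members and lists were chosen with earlier results of these data known, and the motifs after these promoters had been read. Named genes were all members, Taz, and in each related list a set of central genes plus the 3 with the smallest adjusted p, of which the text gives a part; marker genes were named after their values had been seen. Likeness partners were the 3 with the highest r, without predicted genes. Some genes of the pathway are not reported here. No 2 clone files were identical. The 3-count floor covers counting error only.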

Additional observations from a re-analysis of the deposited data

Results flagged for a closer look

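Among 16 sets of 6 clones (8 members in 2 genotypes), 1 held a clone that stood far from the rest. Xiap in wild-type clone 2D was at 119 CPM, and the next wild-type clone was at 129.7 CPM, a gap of 0.63 of the group's range (Dixon's limit for 6 values is 0.625). Chance marks about 1 in 20 such sets. Clone 2D was also the lowest wild-type clone for Casp2 (125 CPM), Casp6 (13.7 CPM) and Apaf1 (144 CPM), and it was the clone with 1498 CPM of mature neutrophil markers. The part of those cells or genes in the low values was not tested.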

How the results depend on the processing

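Over all genes, DESeq2 with independent filtering called 800 higher and 830 lower, edgeR without a count filter 271 and 280, and edgeR on sums by title number 158 and 116, against 472 and 466. Leaving out 1 clone gave 294 to 558 higher and 272 to 535 lower. Of the members, 1 was called as lower without a count filter or after thinning, 0 on sums and 0 in each of the 4 title-number pairs, and 1 to 3 without 1 clone (1 without 1A, 1B, 1C, 3G, 3H or 4K). Of the related genes (4 higher, 2 lower), 7 were higher and 5 lower by DESeq2 with independent filtering, and 5 lower without it. Without a count filter 2 were higher and 1 lower, on sums 1 and 1, and with RLE scaling or the stricter filter 1 was lower. Leaving out 1 clone gave 2 to 4 higher (2 without 1C or 3I) and 1 to 5 lower (5 without 2E, 2 without 2F, 1 without any of the others).

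Casp9, Casp6 and Aifm1 kept their direction in every fit run. Signs turned only for uncalled members near 0. For Casp2 (0.02) the log2 fold change was -0.0038 in the pair 3 against 1, -0.034 in 4 against 1, -0.026 without 2D and 3G together, and -0.032 to 0.046 without 1 clone. For Casp8 (0.01) it was -0.012 in 4 against 1, -0.033 in 4 against 2, -0.028 without 2D and 3G together, and -0.014 to 0.054 without 1 clone. For Xiap (-0.01) it was 0.025 in 3 against 2, 0.029 in 4 against 2, and -0.037 to 0.0026 without 1 clone. The cause was not tested, apart from sums and pairs, which leave fewer samples per fit. No paired analysis was possible because the genotypes share no replicate number.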
